A study of Mus musculus with 18 samples.

Results

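Published target genes of the microRNA miR-205 were followed in skin and pituitary of mice that lack either that microRNA or the long noncoding RNA whose gene surrounds it. The list holds 10 genes, Zeb1, Zeb2, Inppl1, Inpp4b, Frk, Phlda3, Phlpp2, Prkce, E2f1 and Erbb3, and a gene was taken if its symbol stood beside a probe set in the platform's gene table. Of these 10, 9 had a probe set, 1 each, among 22206 probe sets in all, and Zeb2 is not analysed here. The samples were lncKO mice (knockouts of MIR205HG, as the series title has it), miR-205 KO mice and wild-type mice, written "wt" in the labels, all C57BL/6, labelled female and 5 to 6 weeks old. Each genotype was measured in both tissues on 3 Clariom S arrays per group, 18 arrays in 6 groups, and no treatment is given. The sources used here do not give how each allele was made or whether the lncKO mice still make miR-205. Nor do they say that a group's 3 samples are different mice, so every p-value measures only the spread among these samples, and that spread may be technical. The extraction text beside all samples speaks of a piece of ear.

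A microRNA pairs through its seed, bases 2 to 8 of the mature strand, with sites mostly in the 3′ untranslated region of messenger RNAs and lowers their stability or their translation. miR-205 is abundant in stratified epithelia such as epidermis. In mouse skin it is known to repress brakes of PI3K and AKT signalling, and in human cells it is known to repress the ZEB factors, ERBB3, PRKCE, PHLPP2 and E2F1. The arrays read messenger RNA and not protein.

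The microRNA, encoded inside the gene Mir205hg, is shown first, from RefSeq's annotation of GRCm38.p6, with its seed in capitals for the mature strands and both mature strands in capitals for the hairpin. The hairpin lies at chr1:193507463-193507530 on the minus strand.
mmu-miR-205-5p: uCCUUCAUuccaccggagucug
mmu-miR-205-3p: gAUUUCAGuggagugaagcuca
mir-205 hairpin: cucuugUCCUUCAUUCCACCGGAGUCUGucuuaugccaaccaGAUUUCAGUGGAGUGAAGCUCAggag
The seed of the 5p strand pairs with the letters AUGAAGG in a target RNA. Among 1679 named mature mouse microRNAs in the same annotation, 0 others carried the seed of the 5p strand and 0 others that of the 3p strand. Target sites in the messenger RNAs, the Mir205hg transcript and the level of the microRNA itself are not analysed here, so the arrays give no check of either knockout.

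The arrays matched their tissue labels. The mean log2 intensity of 6 keratinocyte markers lay between 15.53 and 15.74 in lncKO skin, between 15.75 and 15.77 in miR-205 KO skin and between 15.39 and 15.65 in wild-type skin, and in pituitary it stayed between 4.05 and 4.40. That of 6 anterior pituitary markers lay between 17.74 and 18.20 in pituitary arrays. In skin their summed intensity was 119 to 135 in lncKO and 106 to 133 in miR-205 KO arrays, against 2683, 116 and 153 in wild type. Wild-type skin 1 stood apart through Gh, the growth hormone gene, at 2501, where the other skin arrays read 7 to 76. Without that array Phlpp2 changed by -1.11 in lncKO and -0.95 in miR-205 KO skin (limma adjusted p = 0.0114 and 0.0203), Prkce by 1.26 in lncKO (0.0145), and in miR-205 KO skin Phlda3 by -1.15 (0.0244) and E2f1 by 1.33 (0.0527). Without it, too, the mesenchymal list described below had 0 calls in lncKO skin, the PI3K and AKT core 1 in lncKO and 2 in miR-205 KO skin, and the E2F list 2 in miR-205 KO skin. Of the 6 pituitary markers, Gh fell and Tshb rose in both skin knockouts, and Prl fell in miR-205 KO skin. These calls are among dim values. By group mean, 4 of the 6 lay at or under an intensity of 16 in each skin knockout and 1 in wild-type skin. Gh read 7 to 15 in the knockout skin arrays.

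Skin groups differed in markers of several cell types. The summed intensity of 4 cartilage markers was 35830 to 67380 in lncKO skin and 44186 to 59147 in miR-205 KO skin, against 11321 to 15030 in wild-type skin, and 3 of the 4 rose in each knockout. For 4 adipocyte markers it was 25987 to 46482 in lncKO and 22461 to 42905 in miR-205 KO skin, against 8737 to 26420 in wild-type skin, and 2 of the 4 rose in each. That of 5 hair markers was 149 to 491 in lncKO and 224 to 399 in miR-205 KO skin, against 244 to 8705 in wild-type skin, and Krtap8-1 and Tchh fell in lncKO skin and Krtap8-1 in miR-205 KO skin. Wild-type arrays 1 and 2 held the high hair values, 6004 and 8705. Of 4 skeletal muscle markers, Actn3 rose in lncKO skin and Actn3 and Ckm in miR-205 KO skin. Krt10 of the 6 keratinocyte markers and Dcn of 5 fibroblast markers rose in both knockouts, by 0.94 and 0.97 for Krt10 and 0.66 and 0.66 for Dcn in log2 units, and Tie1 of 4 endothelial markers fell by 1.02 in miR-205 KO skin. The part of these cell types in the results below was not tested. In whole tissue, fewer cells of a type and less RNA per cell cannot be told apart. Genes of the Y chromosome went against the label of sex in pituitary, since Uty read 10.87 to 11.19 on the log2 scale in the 9 pituitary arrays against 2.58 to 3.70 in the 9 skin arrays.

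In skin, 2 of the 9 target genes differed from wild type in lncKO and 3 in miR-205 KO, and they went both ways. Of all probe sets, 15.4% and 16.8% differed in the same comparisons. Phlpp2 fell in both knockouts, to about 0.494 of the wild-type level in lncKO and 0.552 in miR-205 KO skin. Prkce rose 2.13-fold in lncKO skin. Phlda3 fell to 0.426 of wild type in miR-205 KO skin. E2f1 rose 2.41-fold in miR-205 KO skin, a call lost in each of the 6 fits that left out an array. The other members, Zeb1, Inppl1, Inpp4b, Frk and Erbb3, passed the test in neither knockout. The test throughout was limma's linear model on log2 intensity, and a gene passed it with an adjusted p under 0.05 (Benjamini-Hochberg, over the 19572 probe sets that have a gene symbol). The error after a log2 fold change is its standard error, with n = 3 arrays per group, and both knockouts were set against the same 3 wild-type arrays.

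**Figure D1:**
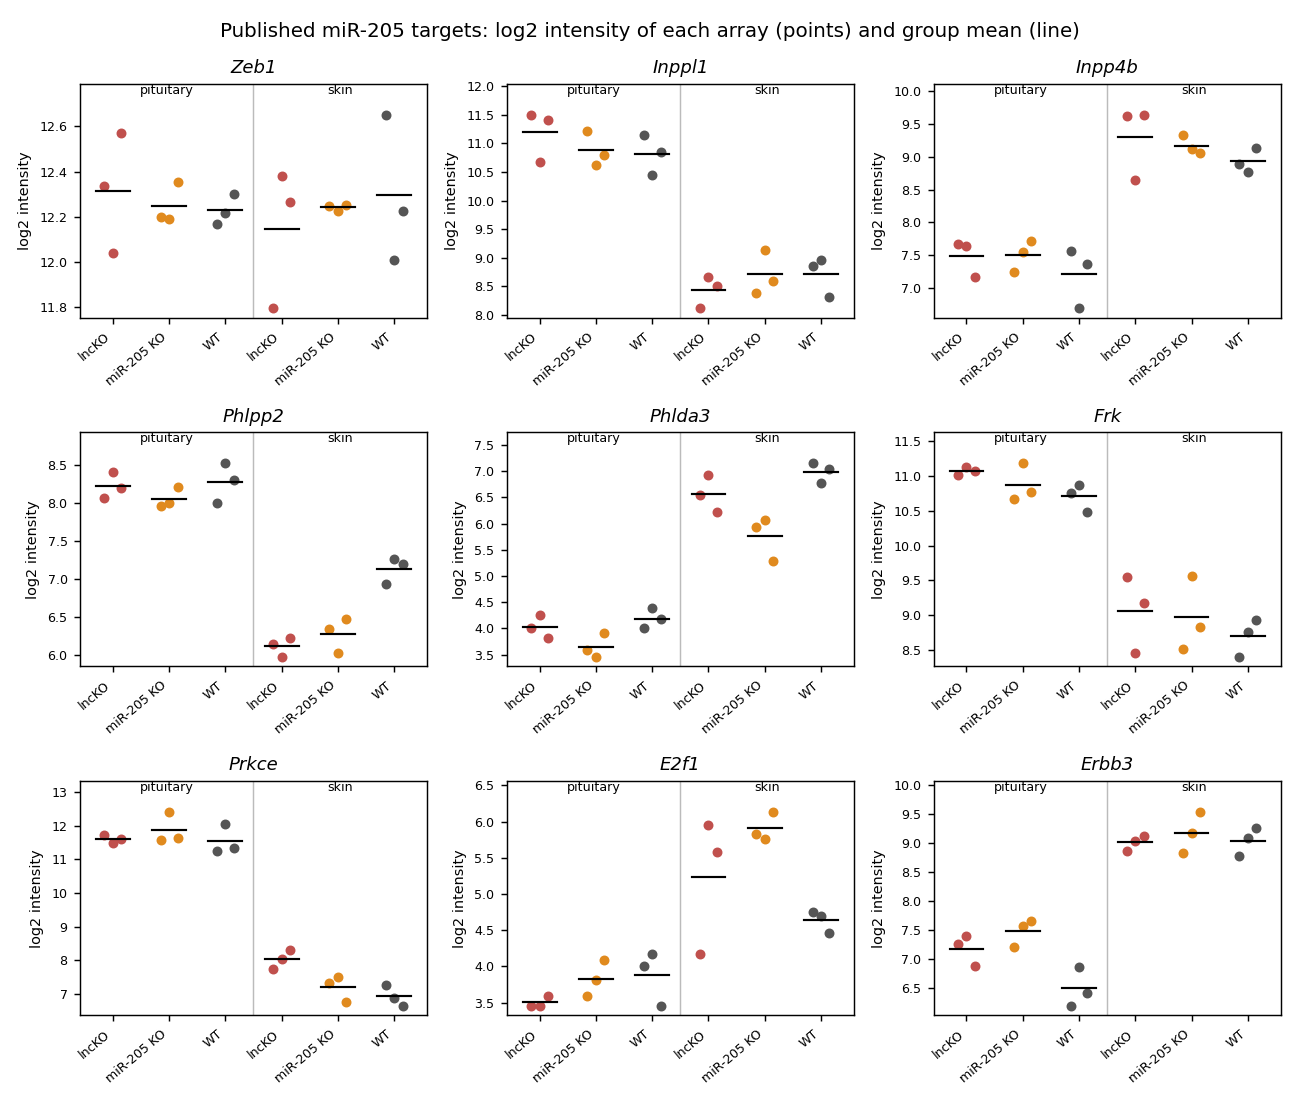
Log2 intensity (vertical axis) of the 9 target genes, 1 panel per gene, in each of the 18 arrays (points) with the mean of each group of 3 (line), pituitary to the left and skin to the right. Phlpp2 in skin reads 63 to 89 in the knockout arrays and 123 to 154 in wild type before the log, while the arrays of Zeb1 overlap across all groups.

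By count, 1 member rose and 1 fell in lncKO skin, against a background of 6.21% of all tested probe sets called higher and 9.17% called lower (15.4% in either direction). In miR-205 KO skin 1 member rose and 2 fell, against 6.79% higher and 10% lower over all probe sets (16.8% in either direction). With every array centred on its median, 52.4% of the probe sets called in lncKO skin and 51.5% of those called in miR-205 KO skin were higher, in place of 40.4% and 40.3%. The median log2 fold change of the 9 members was -0.03 in lncKO skin, where that of all probe sets was -0.07, and 0.14 in miR-205 KO skin, where that of all was -0.07. Their signs were split, with 4 positive and 5 negative in lncKO and 5 positive and 4 negative in miR-205 KO skin. Arrays of knockout and wild type did not overlap for 2 of 9 members in lncKO, against 31.5% of all probe sets, and for 3 of 9 in miR-205 KO skin, against 34.9%.

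Zeb1 encodes a transcription factor that represses epithelial genes and is a marker of epithelial-mesenchymal transition (EMT). Its probe set read 3561, 5327 and 4917 in lncKO skin, 4865, 4796 and 4878 in miR-205 KO skin, and 6436, 4118 and 4783 in wild-type skin. The groups overlapped, with the highest value in wild type 1 and the lowest in lncKO 4. The log2 fold change was -0.15 ± 0.24 in lncKO (95% interval -0.66 to 0.36, limma adjusted p = 0.715) and -0.05 ± 0.24 in miR-205 KO skin (-0.56 to 0.46, adjusted p = 0.907). In pituitary Zeb1 read 5169, 4207 and 6089 in lncKO, 4699, 4673 and 5239 in miR-205 KO and 4610, 4757 and 5042 in wild type, again overlapping, with changes of 0.09 ± 0.18 and 0.02 ± 0.18 (95% intervals -0.30 to 0.47 and -0.36 to 0.40). Across the 6 groups the means of Zeb1 lay between 12.15 and 12.32 on the log2 scale, and each group's arrays overlapped those of the next group in order.

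Genes around the ZEB factors were read beside it, and the counts of this and the other related lists stand against 9.17% of all probe sets called lower and 6.21% higher in lncKO skin and 10% and 6.79% in miR-205 KO skin. Of 9 epithelial genes of the ZEB axis, 3 fell and 0 rose in each skin knockout, namely Cldn7, a tight junction gene, Grhl2, a transcription factor gene of epithelia, and Esrp2, a splicing regulator gene. Grhl2 averaged 8.17 ± 0.46 in lncKO and 8.15 ± 0.20 in miR-205 KO skin, against 9.92 ± 0.26 in wild type (log2 intensity, SD, n = 3), a change of -1.75 ± 0.26 and -1.77 ± 0.26 (adjusted p = 0.00131 and 0.00119). Esrp2 changed by -1.38 ± 0.35 and -1.45 ± 0.35 (adjusted p = 0.0195 and 0.0148), calls lost when all intensities under 16 were raised to 16, here called the floor (0.0925 and 0.078) and in 2 of the 6 fits that left out an array in each knockout. Cldn7 changed by -1.73 ± 0.21 and -1.99 ± 0.21 (adjusted p = 3.68e-04 and 1.59e-04), but its knockout means of 3.26 and 3.00 lie under an intensity of 16, and with the floor the change was -0.99 in both. The list median was -0.51 in lncKO and -0.48 in miR-205 KO skin. Of 7 mesenchymal genes and other EMT factors, 2 rose and 0 fell in each, and these were the transcription factor genes Snai2 and Twist1. Twist1 rose by 0.83 ± 0.23 in lncKO and 1.29 ± 0.23 in miR-205 KO skin (adjusted p = 0.0305 and 0.00367), and Snai2 by 1.24 ± 0.35 and 1.47 ± 0.35 (0.0299 and 0.0131). In lncKO skin both calls held in 1 of 6 fits that left out an array. The floor ended the call for Snai2 in both knockouts (0.116 and 0.0719), and the call for Twist1 in lncKO skin was lost when the third genotype was left out of the fit (0.0654). In both knockouts 3 of 4 cartilage and 2 of 4 adipocyte markers also rose, as given above. Of 5 hair markers, 2 fell in lncKO and 1 in miR-205 KO skin. Their part in the changes of these 2 lists was not tested.

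Inppl1 and Inpp4b encode inositol phosphatases that remove phosphates from the lipids through which PI3K recruits AKT. Inppl1 read 278, 402 and 363 in lncKO skin, 334, 564 and 385 in miR-205 KO skin and 462, 499 and 316 in wild-type skin. Inpp4b read 786, 402 and 799 in lncKO skin, 645, 558 and 530 in miR-205 KO skin and 473, 435 and 564 in wild-type skin. For both genes each knockout overlapped wild type, although 2 of the 3 lncKO arrays of Inpp4b stood above all wild-type arrays. The log2 fold changes of Inppl1 were -0.28 ± 0.27 and 0.00 ± 0.27 (95% intervals -0.86 to 0.30 and -0.58 to 0.58), and those of Inpp4b were 0.37 ± 0.27 and 0.24 ± 0.27 (-0.21 to 0.96 and -0.35 to 0.83), in lncKO and then in miR-205 KO skin.

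Phlpp2 encodes a phosphatase that takes the activating phosphate off AKT. Its probe set read 71, 63 and 75 in lncKO skin, 81, 65 and 89 in miR-205 KO skin and 123, 154 and 147 in wild-type skin. All 6 knockout arrays lay below all 3 wild-type arrays. Its log2 fold change was -1.02 ± 0.21 in lncKO (limma adjusted p = 0.00819) and -0.86 ± 0.21 in miR-205 KO skin (adjusted p = 0.017). The lncKO call held in all 6 fits that left out an array, and the miR-205 KO call was lost without wild type 2 or miR-205 KO 8 (adjusted p = 0.0563 and 0.0708). In pituitary the arrays overlapped, with 270, 341 and 294 in lncKO, 251, 257 and 297 in miR-205 KO and 258, 369 and 316 in wild type, and the changes were -0.05 ± 0.18 and -0.22 ± 0.18.

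Phlda3 encodes a small lipid-binding protein that competes with AKT at the membrane. Its probe set read 93, 121 and 75 in lncKO skin, 61, 67 and 39 in miR-205 KO skin and 142, 110 and 132 in wild-type skin. The miR-205 KO arrays lay below both other groups, and lncKO overlapped wild type through lncKO 5. Phlda3 fell by 1.23 ± 0.26 in miR-205 KO skin (adjusted p = 0.00809), a call that held in all 6 fits that left out an array, and its change in lncKO skin was -0.43 ± 0.26 (adjusted p = 0.287). The pituitary arrays were near the dim end of the scale, with 16, 19 and 14 in lncKO, 12, 11 and 15 in miR-205 KO and 16, 21 and 18 in wild type. There the miR-205 KO arrays again lay below the wild-type arrays, at -0.54 ± 0.19 on the log2 scale, which missed the threshold (adjusted p = 0.57, unadjusted p = 0.0163) and became -0.19 under the floor.

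Frk encodes a tyrosine kinase related to the Src family. In skin it read 749, 350 and 581 in lncKO, 367, 758 and 456 in miR-205 KO and 339, 433 and 490 in wild type. Each knockout spread more widely than wild type and overlapped it, with log2 fold changes of 0.36 ± 0.32 and 0.27 ± 0.32 (95% intervals -0.34 to 1.06 and -0.43 to 0.97). In pituitary the lncKO arrays at 2075, 2247 and 2154 lay above the wild-type arrays at 1736, 1881 and 1433, while the miR-205 KO arrays at 1622, 2323 and 1747 overlapped them. The lncKO difference of 0.37 ± 0.19 missed the threshold (adjusted p = 0.451).

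Other members of the same pathway moved down or did not pass in skin. Of 8 PI3K and AKT phosphatases and other brakes measured outside the members, 2 fell and 0 rose in each knockout. These were Phlpp1, the sister phosphatase gene of Phlpp2, and Them4, which encodes a protein that binds AKT, in lncKO skin, with changes of -0.76 ± 0.24 and -0.87 ± 0.27 (adjusted p = 0.049 and 0.0448), and Tsc1, a brake of mTOR, and Them4 in miR-205 KO skin, at -1.21 ± 0.25 and -1.10 ± 0.27 (0.00683 and 0.0155). The calls for Phlpp1 and Them4 in lncKO skin were lost in 5 of 8 alternative settings each (adjusted p up to 0.119 and 0.0991), whereas Tsc1 held in all 8. Of 9 core genes of PI3K and AKT signalling, 2 fell in lncKO and 4 in miR-205 KO skin, and 0 rose, where 9.17% and 10% of all probe sets fell. Pik3r2, a regulatory subunit of PI3K, changed by -1.26 ± 0.33 and -1.58 ± 0.33 (adjusted p = 0.0231 and 0.00765), and Pdpk1, the kinase that activates AKT, by -0.71 ± 0.21 and -0.78 ± 0.21 (0.0398 and 0.0262). Both calls of Pdpk1 were lost with quantile normalization, in lncKO skin also in each of the 6 fits that left out an array and in miR-205 KO skin in 4 of 6. That of Pik3r2 in lncKO skin was lost with the floor and in 3 of 6 such fits. Pik3cb, a catalytic subunit, fell by 0.76 ± 0.23 in miR-205 KO skin (adjusted p = 0.0422), a call lost in each of the 6 fits that left out an array. The fourth gene called there was Mtor, the kinase downstream of AKT, at -0.87 ± 0.27 (adjusted p = 0.0451), which kept its call in 1 of 6 such fits and is named only to complete the count. Median changes of the brakes were -0.56 and -0.33 and those of the core genes -0.57 and -0.63, in lncKO and then in miR-205 KO skin.

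Prkce encodes protein kinase C epsilon, a signalling kinase of the diacylglycerol pathway. Its probe set read 216, 261 and 314 in lncKO skin, 160, 182 and 108 in miR-205 KO skin and 153, 118 and 101 in wild-type skin. The lncKO arrays stood above both other groups, and the miR-205 KO arrays overlapped wild type. Prkce rose in lncKO skin by 1.09 ± 0.26 in log2 units (limma adjusted p = 0.0147), a call lost without lncKO 6 (0.0583), and changed by 0.26 ± 0.26 in miR-205 KO skin (0.526). Of 7 other protein kinase C genes measured, 0 rose, while 1 fell in lncKO and 2 in miR-205 KO skin. Prkcz, an atypical protein kinase C gene, changed by -1.22 ± 0.28 and -1.34 ± 0.28 (adjusted p = 0.0123 and 0.00724), and Prkch, expressed in differentiating keratinocytes, fell by 0.71 ± 0.21 in miR-205 KO skin (0.0326), a call lost in 4 of the 6 fits that left out an array.

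E2f1 encodes a transcription factor of the G1 to S phase transition. It was dim in skin, with 18, 62 and 48 in lncKO, 57, 54 and 70 in miR-205 KO and 27, 26 and 22 in wild type. The miR-205 KO arrays lay above wild type, and of the lncKO arrays 2 did so while lncKO 4 lay below it. E2f1 rose in miR-205 KO skin by 1.27 ± 0.36 in log2 units (adjusted p = 0.0316), a call lost in each of the 6 fits that left out an array (0.0527 to 0.0995) and under the floor (0.125). In lncKO skin its change was 0.60 ± 0.36 (adjusted p = 0.285), and 1.13 without lncKO 4 (adjusted p = 0.0169). Among 10 genes of the E2F family and E2F targets, 0 rose, 2 fell in lncKO and 1 fell in miR-205 KO skin. Mcm2, a subunit of the replicative helicase, changed by -1.76 ± 0.30 and -1.81 ± 0.30 (adjusted p = 0.00296 and 0.00249), and E2f2 fell by 1.10 ± 0.30 in lncKO skin (0.0273), a call lost under the floor and in 4 of 6 fits that left out an array. In pituitary E2f1 read 11, 11 and 12 in lncKO, 12, 14 and 17 in miR-205 KO and 16, 18 and 11 in wild type, values at the dim end of the scale.

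Erbb3 encodes a receptor of the epidermal growth factor receptor family that binds neuregulins and signals through PI3K. In skin it read 466, 526 and 557 in lncKO, 454, 578 and 740 in miR-205 KO and 437, 541 and 610 in wild type, and the groups overlapped. Its log2 fold changes there were -0.03 ± 0.24 and 0.14 ± 0.24 (95% intervals -0.54 to 0.48 and -0.37 to 0.65). Of 9 ERBB receptors and ligands measured outside the members, 2 fell and 0 rose in each skin knockout, and these were the receptor genes Egfr and Erbb2. Egfr averaged 6.62 ± 0.17 in lncKO and 6.64 ± 0.08 in miR-205 KO skin, against 8.39 ± 0.20 in wild type (log2 intensity, SD, n = 3), a change of -1.78 ± 0.21 and -1.75 ± 0.21 (adjusted p = 2.84e-04 and 3.31e-04). Erbb2 changed by -1.24 ± 0.22 and -1.35 ± 0.22 (adjusted p = 0.00303 and 0.00196). The calls for Egfr and Erbb2 held in all 8 alternative settings and in all 6 fits that left out an array. Of 7 other published targets of miR-205 (Lrp1, Vegfa, Src, Yes1, Med1, Bcl2l2 and Smad4), limma called 0 in either skin knockout, with 0 at an unadjusted p under 0.05, where 15.4% and 16.8% of all probe sets were called. The list median was 0.03 in lncKO and 0.05 in miR-205 KO skin, and that of all probe sets -0.07 in both.

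**Figure D2:**
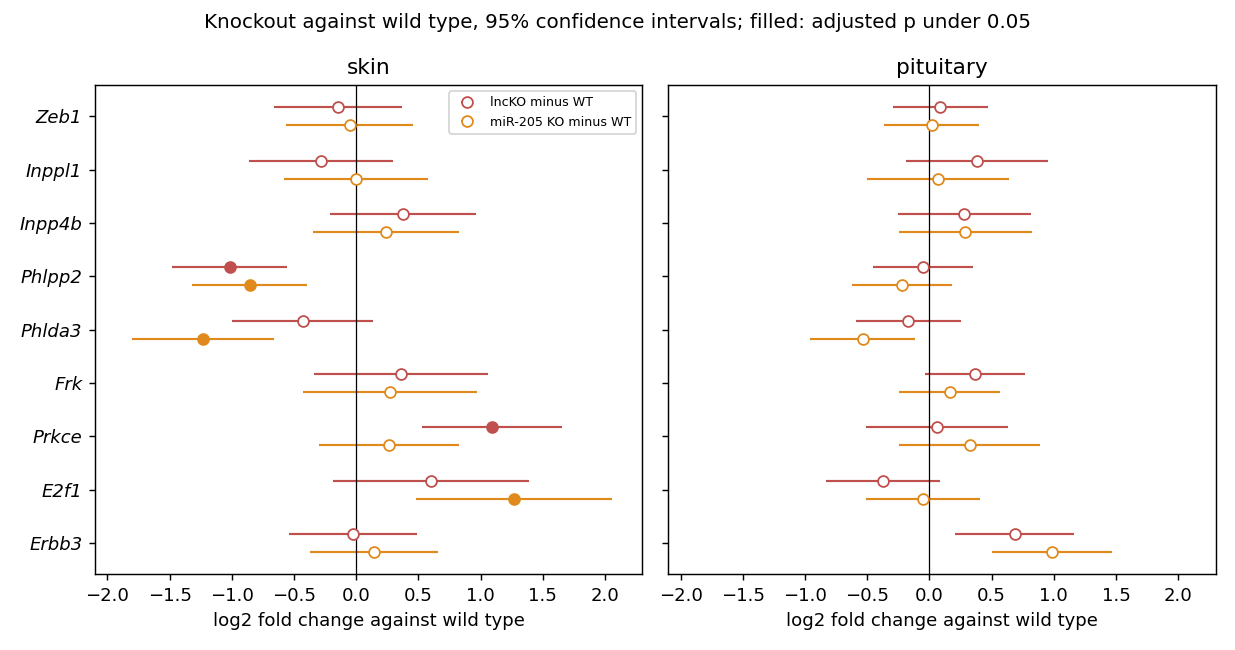
Log2 fold change against wild type (horizontal axis) of each target gene in skin (left) and pituitary (right), with lncKO above miR-205 KO, 95% confidence intervals as bars and filled points for an adjusted p under 0.05. In skin the filled points are Phlpp2 in both knockouts, Prkce in lncKO, and Phlda3 and E2f1 in miR-205 KO, and in pituitary no point is filled.

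**Figure D3:**
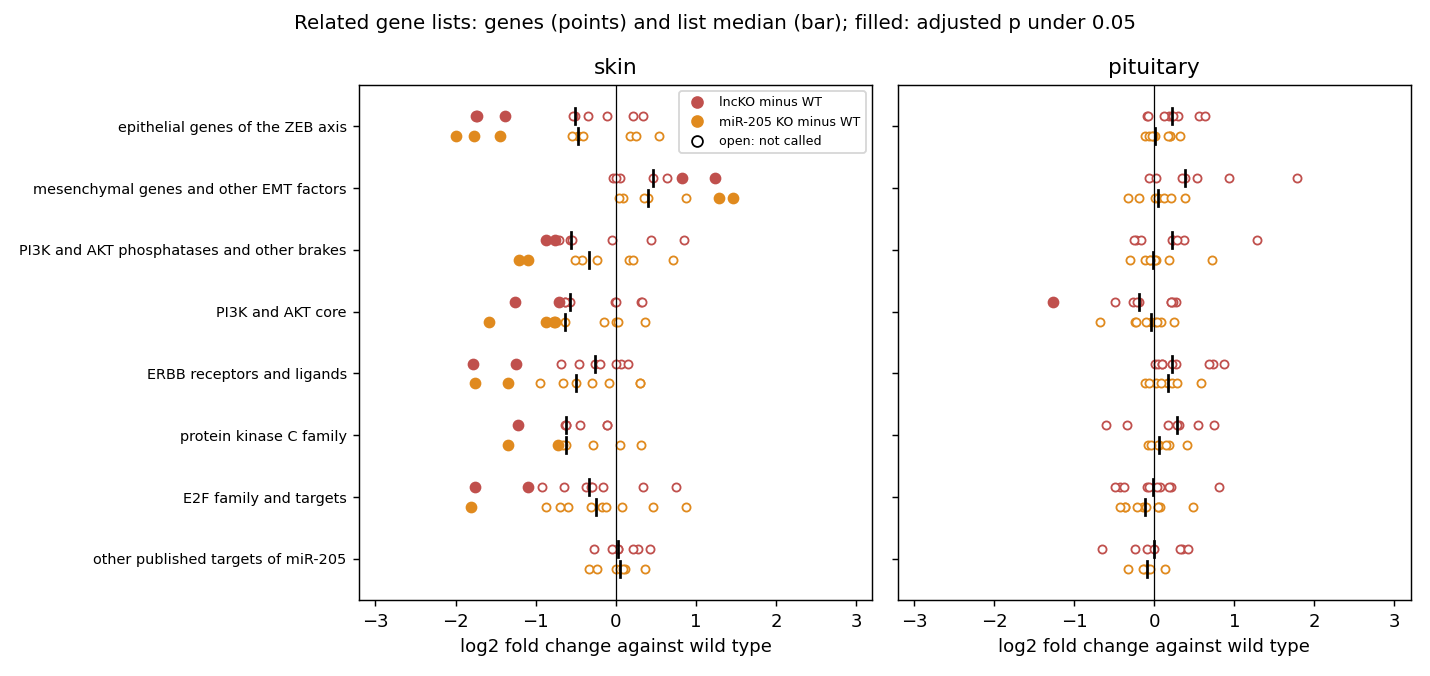
Log2 fold change against wild type (horizontal axis) of the genes of 8 related lists in skin (left) and pituitary (right), with lncKO above miR-205 KO in each row, a bar at the list median and filled points for an adjusted p under 0.05. Filled points of skin lie below 0 in every list that has one except the mesenchymal genes and other EMT factors, where Snai2 and Twist1 lie above 0.

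The direct comparison of lncKO with miR-205 KO skin asks whether a target gene differs between both losses. Limma called 0 of 9 members and 0% of all probe sets, with 2 members at an unadjusted p under 0.05, against 3.25% of all probe sets. These were Prkce, higher in lncKO by 0.83 ± 0.26, and Phlda3, higher in lncKO by 0.80 ± 0.26 (unadjusted p = 0.00715 and 0.00933, adjusted p = 1 for both). Prkce and Phlda3 were also the 2 of 9 members whose arrays did not overlap, against 7.32% of all probe sets. The 95% intervals of these differences were 0.27 to 1.39 for Prkce and 0.23 to 1.37 for Phlda3, while that of Phlpp2 was -0.62 to 0.30 and that of E2f1 -1.46 to 0.12.

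In pituitary, the target genes of neither knockout passed the test. Limma called 0 of 9 members in lncKO, where 0.7% of all probe sets were called, and 0 of 9 in miR-205 KO, where 0.107% were. At an unadjusted p under 0.05 there was 1 member in lncKO, against 12.5% of all probe sets, and there were 2 in miR-205 KO pituitary, against 7.47%. The member found in both was Erbb3. It read 152, 168 and 117 in lncKO pituitary, 147, 189 and 201 in miR-205 KO pituitary and 73, 116 and 85 in wild-type pituitary. All 6 knockout arrays lay above all 3 wild-type arrays, with lncKO 15 at 117 next to wild type 11 at 116. The log2 fold change was 0.68 ± 0.22 in lncKO (95% interval 0.20 to 1.17, unadjusted p = 0.00917, adjusted p = 0.213) and 0.99 ± 0.22 in miR-205 KO pituitary (0.50 to 1.47, unadjusted p = 7.75e-04, adjusted p = 0.233). In none of the alternative settings or fits without an array was Erbb3 called in either (adjusted p 0.137 to 0.459 in lncKO and 0.141 to 0.544 in miR-205 KO pituitary).

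Arrays did not overlap wild type for 2 of 9 members in lncKO pituitary, Frk and Erbb3, against 16.8% of all probe sets, and for 2 of 9 in miR-205 KO pituitary, Phlda3 and Erbb3, against 10.5%. The median log2 fold change of the members was 0.09 in lncKO and 0.07 in miR-205 KO pituitary, where that of all probe sets was 0.01 in both. Inppl1 read 2911, 1642 and 2716 in lncKO, 2397, 1577 and 1788 in miR-205 KO and 2257, 1399 and 1851 in wild-type pituitary, all overlapping. Inpp4b read 203, 200 and 144 in lncKO, 151, 188 and 210 in miR-205 KO and 190, 104 and 165 in wild-type pituitary, with changes of 0.28 ± 0.24 and 0.29 ± 0.24. Prkce read 3390, 2887 and 3085 in lncKO, 3033, 5408 and 3156 in miR-205 KO and 2430, 4224 and 2577 in wild-type pituitary. For Prkce the array miR-205 KO 17 was the highest of all 18, and the groups overlapped. Of the 8 related lists, limma called 1 gene in lncKO and 0 in miR-205 KO pituitary, where 1 gene each of the PI3K and AKT core, the ERBB list and the E2F list had an unadjusted p under 0.05. That gene was Akt2, of the PI3K and AKT core, which fell by 1.26 ± 0.18 in lncKO (adjusted p = 0.0101, and 0.0563 with the floor or 0.0529 without wild type 12). Between lncKO and miR-205 KO pituitary limma called 0 of 9 members, with 0 at an unadjusted p under 0.05 and 0 of 9 without overlap of their arrays, against 0.291% called and 15.9% not overlapping over all probe sets.

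Most target genes differed between the tissues. In wild type, 4 of 9 members were higher in pituitary than in skin and 3 lower, in a comparison where 25.7% of all probe sets were called higher and 26.4% lower (52.1% in either direction). Prkce was 24.4-fold higher in pituitary, with a mean log2 intensity of 11.54 ± 0.44 in pituitary and 6.93 ± 0.30 in skin (SD, n = 3; limma adjusted p = 6.27e-12). Inppl1 was 4.31-fold, Frk 4.02-fold and Phlpp2 2.21-fold higher in pituitary (adjusted p = 1.21e-06, 2.64e-06 and 3.19e-05). Phlda3 in pituitary was at 0.143 of its skin level, Erbb3 at 0.171 and Inpp4b at 0.304 (adjusted p = 1.68e-09, 5.92e-09 and 1.3e-05). E2f1 at -0.76 ± 0.32 on the log2 scale missed the threshold (adjusted p = 0.051), and Zeb1 changed by -0.07 ± 0.20 (0.819). Without wild-type pituitary 11, E2f1 passed (0.0409). Arrays did not overlap for 8 of 9 members, all but Zeb1, against 55.6% of all probe sets. Tissue and the sex seen in the Y chromosome genes cannot be told apart here.

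**Figure D4:**
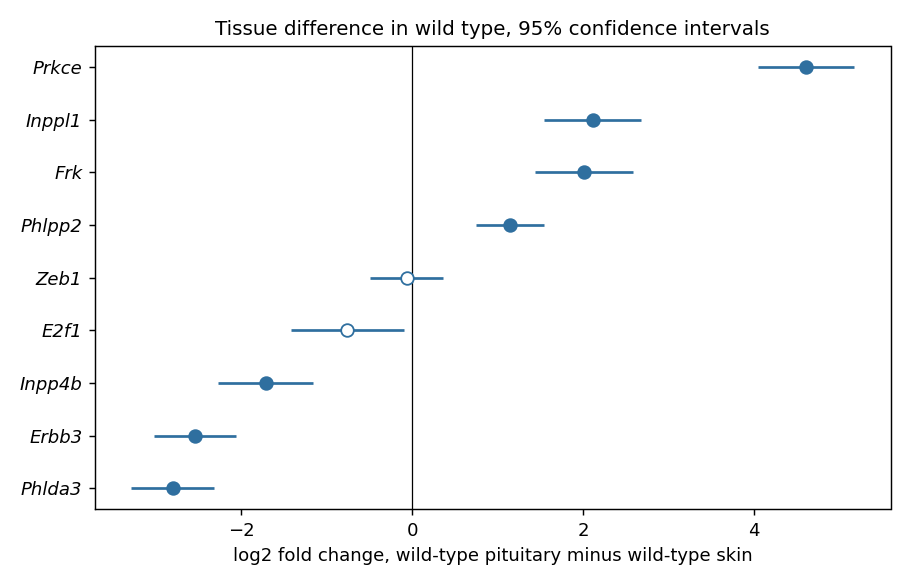
Log2 fold change of each target gene in wild-type pituitary against wild-type skin (horizontal axis), with 95% confidence intervals as bars, filled points for an adjusted p under 0.05 and genes ordered by their change. Prkce at 4.61 is the highest and Phlda3 at -2.80 the lowest, and the open points are Zeb1 and E2f1.

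In the order of the 6 group means, every pituitary group stood above every skin group for Inppl1, Frk, Phlpp2 and Prkce, and below for Inpp4b, Phlda3, E2f1 and Erbb3. Within a tissue most neighbours in that order overlapped. Exceptions in skin were wild type above miR-205 KO for Phlpp2, lncKO above miR-205 KO for Phlda3 and for Prkce, and the exception in pituitary was lncKO above wild type for Erbb3.

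Whether a knockout effect differs between the tissues was tested as an interaction over all 18 arrays. The lncKO effect on Phlpp2 was higher in pituitary than in skin by 0.97 ± 0.27 in log2 units (limma adjusted p = 0.0305), the only 1 of 9 members called, where 9.25% of all probe sets were. At an unadjusted p under 0.05 there were 4 members (Phlpp2, Prkce, E2f1 and Erbb3), against 24.8% of all probe sets. Without lncKO skin 4, E2f1 also passed, at -1.51 (adjusted p = 0.0078). The Phlpp2 call was lost with each array centred on its median (0.072) and in 7 of the 12 fits that left out an array (adjusted p up to 0.075), namely without wild-type skin 2 or 3, lncKO skin 5, wild-type pituitary 10 or 12, or lncKO pituitary 14 or 15. For the miR-205 KO effect 0 of 9 members were called by limma, with 4 members at an unadjusted p under 0.05 (Phlda3, Phlpp2, E2f1 and Erbb3), against 9.95% of all probe sets called and 25.9% at that unadjusted p. Of all probe sets called in these interactions 63.6% and 62.9% were higher in pituitary, which centring the arrays on their medians moved to 48.2% and 45.6%. Among the 9 members the largest difference in the miR-205 KO effect was that of E2f1, at -1.32 ± 0.45 (adjusted p = 0.0678). Its wild-type and miR-205 KO pituitary arrays read 11 to 18, at the dim end of the scale. Among the related genes, the effects on Egfr were higher in pituitary by 2.51 ± 0.26 for lncKO and 1.93 ± 0.26 for miR-205 KO (adjusted p = 1.68e-05 and 2.13e-04).

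The genes whose pattern lay closest to the called members were sought over the 18 arrays, after taking each tissue's mean off every array, among 12821 genes with a group mean above an intensity of 64. These Pearson correlations describe arrays that share their groups and carry no test. For Phlpp2 the closest were Tgm1, the transglutaminase gene of the cornified envelope (r = 0.911), and Lrrc6 (0.902). For Phlda3 they were the dynein light chain genes Dynlt1f (0.875) and Dynlt1c (0.853), near-identical copies that the array may not separate. Prkce lay closest to Hspd1, a mitochondrial chaperonin gene (0.804), and Rtn4, a reticulon gene (0.785). E2f1 lay closest to Rnf32 (0.881) and Ndufa4l2 (0.853). Within the 9 pituitary arrays these correlations were lower than within the 9 skin arrays except for Rtn4, which had 0.835 in pituitary and 0.831 in skin.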

How the data were processed

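The authors deposited 1 intensity for each probe set of each array, linear and in whole numbers, from 4 to 1243875. How they corrected background, summarised probes and normalized is not given in the sources used here. Array medians lay between 82 and 96, and 22.8% to 25.3% of an array's probe sets were at or below 16. At most 5.49% of the values in 2 arrays were equal. The platform's gene table named 19572 probe sets with 1 symbol and left 2634 without. Intensities were log2 transformed, with no pseudocount and no further normalization. The 9 arrays of a tissue entered 1 limma fit (limma 3.58.1, R 4.3.3) with a term per group, leaving 6 residual degrees of freedom; the tissue comparison and the interactions used all 18 arrays. The procedure was tested on simulated data for the lncKO skin comparison only. The planted changes were larger than those of the members called in skin, so recovery of changes of that size was not tested. Precision is limited by how many arrays there are: the members' standard errors had medians of 0.26 in skin and 0.21 in pituitary. Genes named beside the members are, per related list and comparison, up to 3 called genes with the smallest p. The members, lists and tests were chosen with earlier results of these data known.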

Additional observations from a re-analysis of the deposited data

Results flagged for a closer look

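The lncKO effect on Phlpp2 was flagged because it differed between the tissues in a test of the difference itself, by 0.97 ± 0.27 on the log2 scale, pituitary minus skin (limma interaction, adjusted p = 0.0305). The call was lost with each array centred on its median (0.072) and in 7 of the 12 fits that left out an array (up to 0.075). Pituitary and skin arrays also differed in Y chromosome genes, so tissue and sex cannot be told apart in this difference. In skin all 3 lncKO arrays lay below the 3 wild-type arrays, at 63 to 75 against 123 to 154. In pituitary the 3 lncKO arrays, at 270 to 341, lay within the 258 to 369 of wild type. The corresponding difference for the miR-205 KO effect was 0.64 ± 0.27 (adjusted p = 0.14). Groups of 3 arrays were not searched systematically for outlying samples, although the cell type markers set wild-type skin 1 apart, as given above.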

How the results depend on the processing

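No paired analysis was possible because the labels do not say which samples come from the same mouse. Samples are numbered consecutively across the groups, so their numbers carry no pairing. The 81 member results (9 genes in 9 comparisons) were recomputed in 1179 alternative values: 79 lay on the other side of 0, none of them in a result called in either setting, 18 lost a call and 5 gained one. The number of members called for the lncKO effect between tissues was 0 in place of 1 with each array centred on its median, and for the miR-205 KO effect 1 in place of 0 with that centring (E2f1) and 1 with a floor at an intensity of 16 (Phlda3); the cause was not tested. Leaving out each array gave 1 to 3 members in lncKO skin, 1 to 2 in miR-205 KO skin, 7 to 8 between tissues in wild type, 0 to 2 for the lncKO interaction and 0 in the other comparisons. Over all probe sets the floor gave 1937 in place of 3009 calls in lncKO skin, 2173 in place of 3293 in miR-205 KO skin, 11 in place of 137 in lncKO pituitary, 0 in place of 21 in miR-205 KO pituitary and 18 in place of 57 between the pituitary knockouts. Those pituitary counts, in the same order, were 307, 41 and 161 with a variance trend and robust estimation, 59, 5 and 27 with only the groups compared, and 240 and 131 in lncKO and between the knockouts with the filter at 32. They fell to 11, 4 and 4 at the lowest without an array. In skin the lowest were 1886 and 1668, and between the skin knockouts the fit of 18 arrays called 6 in place of 0. Centring on medians moved the median of all probe sets by -0.12 and -0.14 in the interactions. The alternatives were also applied to the related lists, a choice made after seeing the data, and 834 of 960 list counts stayed within 1.5 times.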
